A study of Arabidopsis thaliana with 8 samples.

Results

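The genes described here are 10 members of the jasmonate pathway of Arabidopsis thaliana, listed by locus with no threshold on a measured value, out of 32833 genes in the deposited table. They are the plastid lipoxygenases LOX2 (AT3G45140), LOX3 (AT1G17420), LOX4 (AT1G72520) and LOX6 (AT1G67560), the allene oxide synthase AOS (AT5G42650), the allene oxide cyclases AOC1 (AT3G25760) and AOC2 (AT3G25770), the reductase OPR3 (AT2G06050), and the output genes TAT3 (AT2G24850) and VSP2 (AT5G24770). All 10 passed the filter on low values, at least 1 FPKM in at least 2 libraries, and 9 of them reached 1 FPKM in all 8 libraries. TAT3 reached it in all 3 WT libraries but in only 1 library of each RNAi line. The 10 genes were chosen with earlier results of these data known, so their counts beside shares of all genes are descriptions only.

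Transcript levels were measured by RNA sequencing of whole seedlings in 8 libraries. The 3 WT libraries came from Col-0, the common laboratory accession, and 2 and 3 libraries came from the RNA interference lines labelled rli2 RNAi #5 and #12, whose genotype is given as RLI2 knockdown and which are called line 5 and line 12 here. RLI2, listed as ABCE2, belongs to the ATPase family that splits ribosomes after translation. Every group had 3 days in the cold (4 °C) and 7 days at 22 °C on Murashige and Skoog plates, lit for 16 h of each day and dark for 8 h. Not given in the sources used here are the promoter of the RNAi construct, the number of plants in a library and the hour of harvest. The labels do not say whether replicates are separate cultures, and p-values cover only the spread from library to library, which may be technical.

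Jasmonates are lipid hormones made when leaves are wounded, touched or eaten, and they also act in flower development. In the plastid a lipoxygenase adds oxygen to linolenic acid, AOS turns the product into an unstable allene oxide, and a cyclase closes the ring to give OPDA, which OPR3 reduces in the peroxisome before the side chain is shortened. The isoleucine conjugate of jasmonate binds the receptor COI1, the JAZ repressors are destroyed, and MYC transcription factors are freed to switch on the synthesis genes themselves, the JAZ genes and late output genes such as TAT3 and VSP2.

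ABCE2 stood at 57.5, 57.8 and 58.6 FPKM in WT, at 25 and 26.4 in line 5 and at 26.7, 26.4 and 23.3 in line 12, so the labels matched the targeted transcript in every library. FPKM is a fragment count scaled by gene length and library depth, and the low values implied 42270000 to 49010000 fragments per library. Ribosomal RNA genes took 0.192% to 0.412% of the fragments in WT. In line 5 they took 0.468% and 2.18%, and in line 12 they took 0.161%, 2.34% and 7.60%. Libraries were of whole seedlings, so fewer cells of a type and less RNA per cell cannot be told apart in any value below.

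Of the 8 synthesis genes, LOX3, LOX4, AOS and AOC2 were higher in both RNAi lines than in WT, LOX6 and OPR3 in line 5 and LOX2 in line 12, while the output gene TAT3 was lower in both lines. By limma with Benjamini-Hochberg adjustment over 19395 genes at a threshold of 0.05, 7 of the 10 rose in line 5 and 1 fell, where 22.2% of all genes rose and 22.3% fell. Of the same 10, 5 rose and 1 fell in line 12, beside 28.3% and 27.7% of all genes. Of all genes tested, 17.6% rose in both lines, as these 4 did, and 17.7% fell in both, as TAT3 did. For the mean of both lines 7 rose and 1 fell, beside 28.1% of all genes in each direction. Both comparisons share the 3 WT libraries.

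By ranges alone, 9 of the 10 genes in line 5 lay above all WT libraries and 1 below, while 33.2% of all tested genes lay above and 34.7% below. Line 12 had 6 above WT, 1 below and 3 that overlapped it, with 32.2% and 31.9% of all tested genes. Over all 5 RNAi libraries, 6 lay above every WT library and 1 below, with 24.1% and 24.7% of all tested genes. A change in this text is a log2 difference between levels of FPKM + 1, a scale on which the change of a weakly expressed gene comes out too small. The median change of the 10 genes was 1.13 in line 5 and 0.37 in line 12, and that of all tested genes was -0.0086 and -0.0024.

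**Figure D1:**
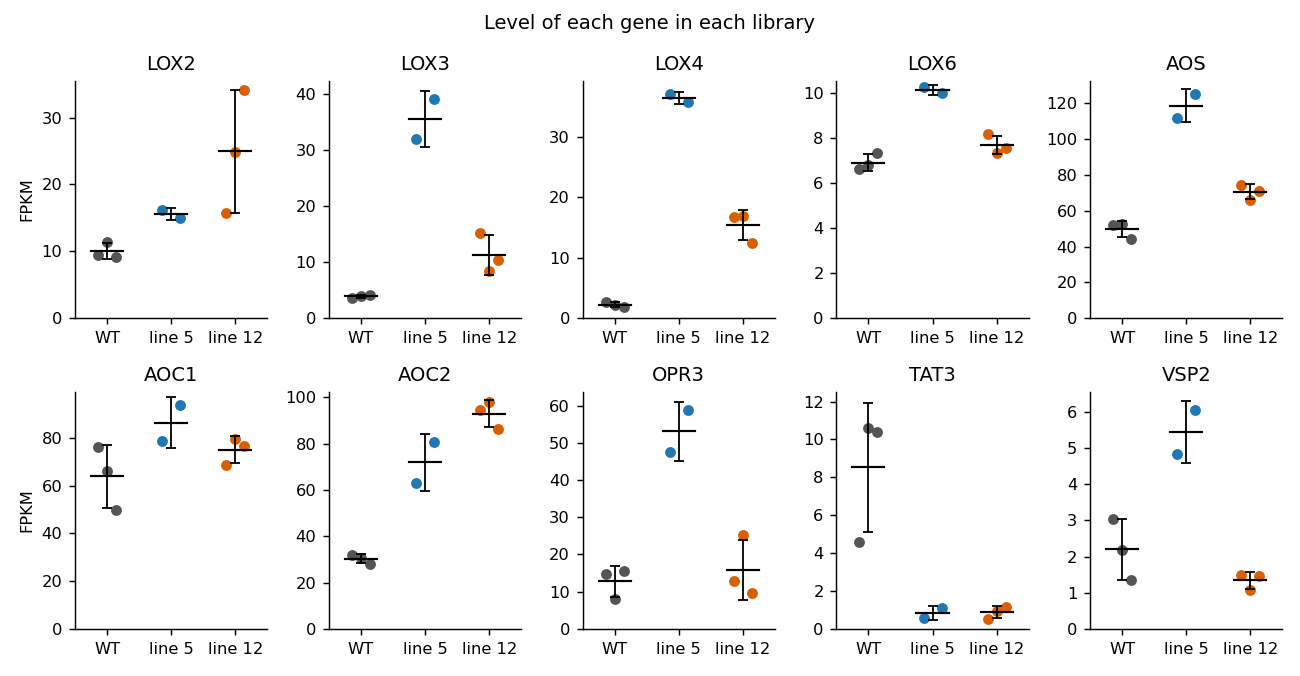
FPKM of each of the 10 genes in the 3 WT, 2 line 5 and 3 line 12 libraries, 1 point per library, with the mean and SD of each group as bars and a separate axis for each gene. LOX3, LOX4, LOX6, AOS, OPR3 and VSP2 were highest in both line 5 libraries, AOC2 was highest in the 3 line 12 libraries, and TAT3 was at 1.16 FPKM or less in every RNAi library.

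LOX3 and LOX4, lipoxygenases known to respond to wounding and to act in male fertility, gave the highest changes of the 10 genes in line 5; in line 12 AOC2 came between them. LOX4 stood at 2.62, 2.27 and 1.89 FPKM in WT, at 37.2 and 35.8 in line 5 and at 16.8, 17 and 12.5 in line 12. The 3 groups did not overlap, and line 12 lay between WT and line 5. LOX4 rose to 16.2 times the WT mean in line 5 (log2 change 3.53, SE 0.145, limma adjusted p = 4.08e-06) and to 6.83 times in line 12 (2.33, SE 0.130, limma adjusted p = 8.26e-06). Among the 19395 genes tested its change was the 57th highest in line 5 and the 172nd highest in line 12. LOX4 lies on TAIR10 chromosome 1, 27308513 to 27312756 on the plus strand, in 6 exons.

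LOX3 stood at 3.67, 4.00 and 4.06 FPKM in WT, at 32.1 and 39.1 in line 5 and at 15.2, 8.36 and 10.4 in line 12. Its groups did not overlap either, and its WT libraries had the smallest SD of the 4 lipoxygenases (0.213 FPKM, n = 3). The change was 2.89 in line 5 (SE 0.207, limma adjusted p = 3.55e-05), or 9.10 times the WT mean, and 1.29 in line 12 (SE 0.185, limma adjusted p = 0.000699), or 2.90 times. LOX3 lies on chromosome 1 as well, at 5977323 to 5981521 on the plus strand, with 8 exons. The coding sequences of LOX3 and LOX4 were 81.1% identical over the aligned bases, and no stretch of 50 bases was the same in both transcripts.

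The 250 bases before the annotated start of LOX3 (chr1:5977073-5977322, plus strand) and of LOX4 (chr1:27308263-27308512, plus strand) are shown because these paralogs gave the highest changes in line 5. They are read 5′ to 3′ from RefSeq TAIR10.1, whose coordinates are those of TAIR10 for these genes. Capitals mark matches to any of 8 motifs searched on both strands: CACGTG, the G-box bound by MYC factors, its variant with the letters CACATG, and a second variant of the same box with AACGTG. The others were GCCGCC, the box bound by ERF factors, CGCGTT, an element of rapid stress responses, and TTGACC, a form of the W-box. Other forms of the W-box, which WRKY factors bind, were not searched. TGACG, the core bound by TGA factors, and AATATCT, the core of the evening element of clock-controlled genes, were the last. No match overlapped another.
LOX3: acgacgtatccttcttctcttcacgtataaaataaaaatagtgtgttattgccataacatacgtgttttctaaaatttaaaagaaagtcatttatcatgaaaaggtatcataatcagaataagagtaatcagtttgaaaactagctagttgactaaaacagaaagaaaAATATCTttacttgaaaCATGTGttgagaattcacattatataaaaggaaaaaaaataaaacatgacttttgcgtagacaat
LOX4: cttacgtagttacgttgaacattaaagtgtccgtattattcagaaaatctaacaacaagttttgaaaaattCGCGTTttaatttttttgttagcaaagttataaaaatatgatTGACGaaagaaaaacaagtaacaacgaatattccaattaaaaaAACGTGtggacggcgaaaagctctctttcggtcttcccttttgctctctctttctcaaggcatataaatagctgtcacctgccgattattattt
LOX3 held AATATCT and, on the other strand, CACATG. It had a further AACGTG in the 50 bases after its start, which are not printed. LOX4 held CGCGTT, the TGA factor core and, nearest to its start, the letters AACGTG. The 27418 promoter windows of the genome held 250 bases before and 50 after a start. Of these windows, 11.5% held AATATCT, 12.9% CACATG, 3.40% CGCGTT, 23.1% the TGA factor core and 8.95% AACGTG. A match describes letters and no binding was measured.

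LOX2, the most abundant lipoxygenase of the leaf and the one tied to the rapid wound response of injured tissue, stood at 9.45, 11.4 and 9.19 FPKM in WT. Both line 5 libraries were higher, at 16.2 and 15, and line 12 was at 15.7, 24.9 and 34.2. Every RNAi library lay above every WT library, and the line 12 libraries spread the most (SD 9.21, n = 3, against 1.22 in WT). LOX2 rose in line 12 to 2.49 times the WT mean (1.18, SE 0.238, limma adjusted p = 0.00391). In line 5 the change was 0.59 (SE 0.266, 95% interval -0.02 to 1.21, limma adjusted p = 0.105), and it passed in a fit of line 5 and WT alone (0.59, limma adjusted p = 0.00632). The line 12 libraries with 24.9 and 34.2 FPKM were those with 2.34% and 7.60% of fragments on ribosomal RNA genes, and without the 3 libraries above 2% the line 12 change was 0.61 (limma adjusted p = 0.0259); the part of that share in the LOX2 level was not tested. LOX2 lies on chromosome 3, 16525245 to 16529352 on the plus strand, in 7 exons.

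LOX6, needed for the fast jasmonate rise in leaves away from a wound, had the group means that differed least of the 4. It stood at 6.63, 6.80 and 7.35 FPKM in WT, at 10.3 and 10 in line 5 and at 8.18, 7.37 and 7.57 in line 12. The lowest line 12 library lay just above the highest WT library, while line 5 stood clear of both. LOX6 rose in line 5 by 0.49 (SE 0.073, limma adjusted p = 0.0013), and its line 12 change of 0.13 did not pass (SE 0.066, 95% interval -0.02 to 0.29, limma adjusted p = 0.115). The line 12 change passed in only 1 of 16 alternatives, at 0.19 (limma adjusted p = 0.0302). In that setting ribosomal RNA and organelle genes were removed and the libraries rescaled. This moved the median change of all tested genes in line 12 from -0.0024 to 0.0513. LOX6 is on chromosome 1, 25319804 to 25324581 on the plus strand, in 9 exons.

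Summed over LOX2, LOX3, LOX4 and LOX6, the lipoxygenase level was 22.4, 24.5 and 22.5 FPKM in WT, 95.7 and 99.9 in line 5 and 55.9, 57.6 and 64.6 in line 12. LOX2 and LOX6 together made up most of the WT sum, at 43.2% ± 2.99 and 30.1% ± 2.47 (SD, n = 3). In line 5 LOX4 held 37.3% ± 2.19 and LOX3 36.3% ± 3.96 (SD, n = 2), and LOX6 was down to 10.3% ± 0.495. Line 12 kept LOX2 as its largest part on average, 41.4% ± 12.4 (SD, n = 3), with LOX4 at 26.3% ± 6.07. In single line 12 libraries LOX2 ranged from 28.2% to 52.9% of the sum. Shares of a sum move when any of its parts moves, so they were not tested.

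**Figure D2:**
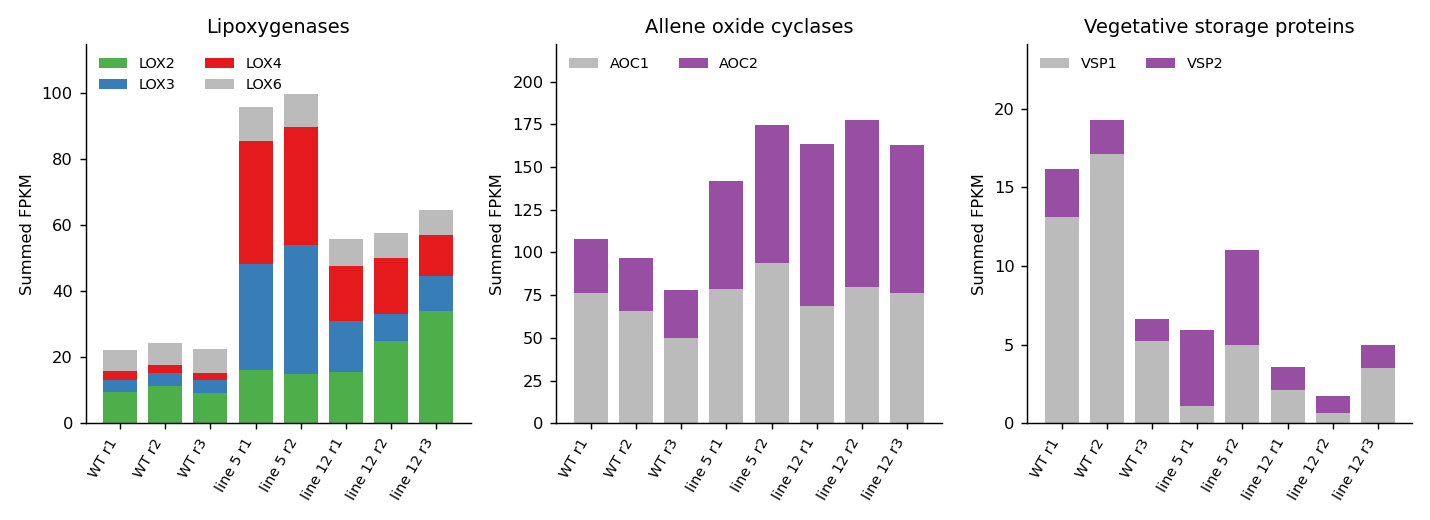
Summed FPKM per library for the 4 lipoxygenases, for AOC1 with AOC2, and for VSP1 with VSP2, with each bar divided by gene. LOX3 and LOX4 filled most of the lipoxygenase bar in line 5, AOC2 took 53.1% to 57.9% of the cyclase bar in line 12 against 29.6% to 36.2% in WT, and VSP1 made up most of each WT storage protein bar.

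AOS, a cytochrome P450 of the plastid and the only allene oxide synthase gene of the pathway, stood at 52.2, 52.6 and 44.4 FPKM in WT. Line 5 was at 112.1 and 125.5, and line 12 at 74.4, 66.2 and 71.2. The groups did not overlap, with line 12 again between WT and line 5. AOS rose to 2.39 times the WT mean in line 5 (1.24, SE 0.094, limma adjusted p = 4.71e-05) and to 1.42 times in line 12 (0.50, SE 0.084, limma adjusted p = 0.00162). It was the best covered of the 10, with 3810 to 11179 implied fragments per library. AOS lies on chromosome 5, 17097564 to 17099595 on the minus strand, in 1 exon.

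AOC1 and AOC2, neighbouring cyclase genes on the plus strand of chromosome 3 with 1330 bases between them, did not move alike. AOC2 (9406669 to 9408071, 2 exons) stood at 32.0, 30.7 and 28.2 FPKM in WT, at 63.2 and 80.7 in line 5 and at 94.6, 97.9 and 86.5 in line 12. It was the 1 gene of the 10 with every line 12 library above every line 5 library. AOC2 rose by 1.21 in line 5 (SE 0.109, limma adjusted p = 0.000107) and by 1.59 in line 12 (SE 0.098, limma adjusted p = 1.21e-05). The difference between the lines was 0.37 (95% interval 0.12 to 0.63, limma adjusted p = 0.0503). That difference passed at 0.44 (limma adjusted p = 0.0276) after the libraries were rescaled without ribosomal RNA and organelle genes. With the filter set at 5 FPKM it passed at 0.37 (limma adjusted p = 0.0464). Most alternatives did not pass, and the difference ran from 0.20 to 0.57 over all of them. Without line 5 replicate 2, which left 1 line 5 library, it was 0.55.

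AOC1 (9403779 to 9405338, 2 exons) stood at 76.0, 65.9 and 49.8 FPKM in WT, at 78.7 and 93.8 in line 5 and at 68.8, 79.7 and 76.4 in line 12. WT spread widely and overlapped line 12. Its changes of 0.44 in line 5 (95% interval 0.05 to 0.83, limma adjusted p = 0.0634) and 0.24 in line 12 (-0.10 to 0.59, limma adjusted p = 0.197) did not pass. The changes turned on the WT libraries: without WT replicate 1 that of line 5 was 0.58 and passed (limma adjusted p = 0.0251), while without WT replicate 3 those of line 5 and line 12 were 0.28 and 0.08 and did not. AOC2 made up 29.6%, 31.8% and 36.2% of the sum of both genes in WT, 44.5% and 46.3% in line 5 and 57.9%, 55.1% and 53.1% in line 12, so the 3 groups did not overlap in that share. The coding sequences were 90.3% identical. Of all overlapping 50-base stretches, 2.1% of those of AOC1 and 0.0799% of those of AOC2 were shared with another cyclase transcript. None of 75 bases was shared. Such stretches overlap, so these are not shares of the transcripts' bases.

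The bases before the starts of these genes and of AOS are shown for 2 reasons. The neighbours AOC1 (chr3:9403529-9403778, plus strand) and AOC2 (chr3:9406419-9406668, plus strand) differed in level. AOS (chr5:17099596-17099845, minus strand) held the only G-box in the searched windows of the 10 genes. Capitals mark the same motifs as above.
AOC1: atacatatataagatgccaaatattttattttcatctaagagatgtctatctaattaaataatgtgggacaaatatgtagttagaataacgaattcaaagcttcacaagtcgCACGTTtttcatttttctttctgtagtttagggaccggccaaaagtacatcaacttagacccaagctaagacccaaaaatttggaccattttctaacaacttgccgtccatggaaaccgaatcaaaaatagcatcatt
AOC2: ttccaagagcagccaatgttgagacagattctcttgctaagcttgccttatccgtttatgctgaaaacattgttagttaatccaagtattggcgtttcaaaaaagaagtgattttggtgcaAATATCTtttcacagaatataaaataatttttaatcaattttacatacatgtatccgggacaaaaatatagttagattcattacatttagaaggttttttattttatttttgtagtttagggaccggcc
AOS: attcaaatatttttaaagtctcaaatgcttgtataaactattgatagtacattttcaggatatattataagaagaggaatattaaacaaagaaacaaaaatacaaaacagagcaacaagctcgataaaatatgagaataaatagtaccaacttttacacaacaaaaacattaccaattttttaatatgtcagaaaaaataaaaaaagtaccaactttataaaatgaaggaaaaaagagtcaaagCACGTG
In AOS the letters CACGTG were the last 6 bases before the annotated start, and 7.67% of all promoter windows held that motif. AOC1 held AACGTG on the other strand 138 bases before its start, and AOC2 held AATATCT 129 bases before its own; AOC2 also had AACGTG in the 50 bases after its start. The AOC windows shared the 19-base run tgtagtttagggaccggcc, which ended 99 bases before the AOC1 start and 1 base before the AOC2 start. GCCGCC was in no window of the 10 genes and in 2.57% of all windows.

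OPR3, the reductase that carries the pathway from OPDA toward jasmonic acid, stood at 14.8, 7.94 and 15.5 FPKM in WT, at 47.4 and 58.7 in line 5 and at 12.8, 25.1 and 9.69 in line 12. Line 5 was above all other libraries, and line 12 overlapped WT. OPR3 rose in line 5 to 4.17 times the WT mean (2.02, SE 0.393, limma adjusted p = 0.00458). The line 12 change was 0.24 (SE 0.352, 95% interval -0.57 to 1.06, limma adjusted p = 0.582). Its sign rested on single libraries, since it was -0.04 without WT replicate 2 and -0.13 without line 12 replicate 2. OPR3 lies on chromosome 2, 2359114 to 2362375 on the minus strand, in 5 exons of which 4 are coding.

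TAT3, a tyrosine aminotransferase gene used as a marker of jasmonate and wound responses, moved against the synthesis genes. It stood at 4.58, 10.6 and 10.4 FPKM in WT, at 0.561 and 1.09 in line 5 and at 0.540, 0.942 and 1.16 in line 12. Every RNAi library was below every WT library, and the lines overlapped. TAT3 fell to 9.71% of the WT mean in line 5 (-2.32, SE 0.329, limma adjusted p = 0.001) and to 10.3% in line 12 (-2.28, SE 0.294, limma adjusted p = 0.000413), the 43rd and 66th lowest changes among the tested genes. Its RNAi levels rested on 60 to 121 implied fragments per library, against 510 to 1243 in WT. TAT3 lies on chromosome 2, 10582074 to 10585216 on the minus strand, in 7 exons. Its promoter (chr2:10585217-10585466, minus strand) is shown because it was the only gene of the 10 that fell.
TAT3: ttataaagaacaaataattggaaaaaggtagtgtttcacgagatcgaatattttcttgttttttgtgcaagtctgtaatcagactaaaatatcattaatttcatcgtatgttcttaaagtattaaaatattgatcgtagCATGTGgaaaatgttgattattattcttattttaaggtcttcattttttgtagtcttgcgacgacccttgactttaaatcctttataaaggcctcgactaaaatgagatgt
Of the 8 motifs, capitals mark the only match, CACATG on the other strand 111 bases before the start, a motif that LOX2 and LOX3 held as well.

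VSP2, a vegetative storage protein of the acid phosphatase family and a classical late marker of jasmonate in shoots, had the lowest WT mean of the 10 genes, beside LOX4, whose range it overlapped. It stood at 3.05, 2.19 and 1.36 FPKM in WT, at 4.84 and 6.05 in line 5 and at 1.50, 1.08 and 1.46 in line 12. Line 5 lay above WT, and line 12 overlapped the lower part of the WT range. VSP2 rose in line 5 by 1.04 (SE 0.219, limma adjusted p = 0.00659), a call that was lost without line 5 replicate 2 (0.90, limma adjusted p = 0.0501) and without the 3 libraries above 2% ribosomal RNA (0.90, limma adjusted p = 0.0807). The line 12 change was -0.42 (SE 0.196, 95% interval -0.87 to 0.04, limma adjusted p = 0.104) and passed at -0.62 (limma adjusted p = 0.0152) without WT replicate 3, but stood at -0.23 and did not pass without WT replicate 1. VSP2 lies on chromosome 5, 8500468 to 8502224 on the minus strand, in 3 exons. Between 71 and 400 implied fragments per library lay behind these levels.

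The paralog VSP1, 5365 bases away on the same strand and 90.4% identical in coding sequence, stood at 13.1, 17.1 and 5.25 FPKM in WT, at 1.11 and 4.98 in line 5 and at 2.09, 0.637 and 3.52 in line 12. It was lower in all RNAi libraries than in all WT libraries. VSP1 fell in line 12 (-2.04, limma adjusted p = 0.015), and its line 5 change was -1.72 (limma adjusted p = 0.0549). VSP2 was 18.9%, 11.4% and 20.5% of the sum of both in WT, 81.4% and 54.9% in line 5 and 41.8%, 62.9% and 29.2% in line 12. Of all overlapping 50-base stretches of the VSP2 transcript, 0.364% were shared with VSP1, and none of 75 bases was shared.

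**Figure D3:**
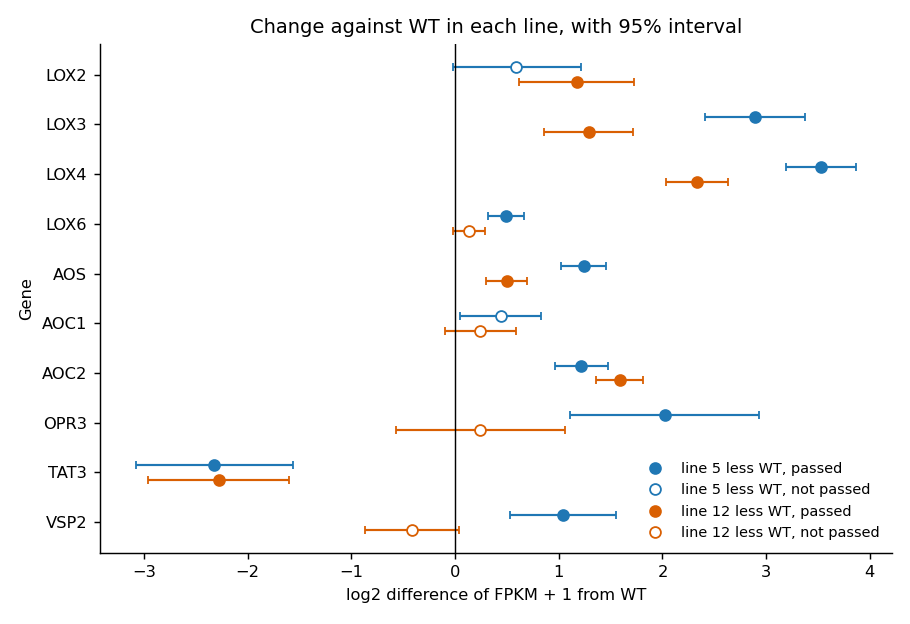
Log2 difference of FPKM + 1 from WT for each of the 10 genes in line 5 and line 12, with 95% intervals from limma; filled points passed the adjusted threshold of 0.05 and open points did not. LOX4 stood highest in both lines at 3.53 and 2.33, TAT3 was near -2.3 in both, and VSP2 stood at 1.04 in line 5 and -0.42 in line 12.

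The order of levels within a group also differed. In WT the order of means was AOC1, AOS, AOC2, OPR3, LOX2, TAT3, LOX6, LOX3, LOX4 and VSP2. The ranges of AOC1 and AOS overlapped there, as did those of OPR3, LOX2, TAT3 and LOX6 from each to the next, and those of LOX4 and VSP2. In line 5 AOS came first, at 118.8 ± 9.49 FPKM (SD, n = 2), clear of AOC1, and LOX4 and LOX3 moved ahead of LOX2 with ranges that overlapped each other. AOC2 led in line 12, at 93.0 ± 5.88 FPKM (SD, n = 3), clear of AOC1, whose range overlapped that of AOS. LOX2, OPR3, LOX4 and LOX3, in that order, overlapped from each to the next in line 12, and TAT3, last in both lines, overlapped VSP2 in line 12 alone.

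A direct comparison of the lines asked where the knockdown lines, with like levels of the target, differed in this pathway. None of the 10 genes rose and 6 fell in line 12 relative to line 5, beside 9.07% and 9.93% of all tested genes; the counts over all genes were 1760 higher and 1925 lower, or 2413 and 1563 when the libraries were rescaled without genes of ribosomal RNA and organelles. The 6 that fell had all risen in line 5 against WT, a pairing of calls found in 4.46% of all genes; these calls share the line 5 libraries. By the rule of non-overlap, 6 of the 10 were higher in line 5, 1 was lower and 3 overlapped, beside 26.5% and 23.1% of all tested genes. OPR3 (-1.78, SE 0.393, limma adjusted p = 0.0193) was the 49th lowest of all line differences, and LOX3 (-1.60, SE 0.207, limma adjusted p = 0.0024) the 74th. VSP2 fell by 1.46 (SE 0.219, limma adjusted p = 0.00444), LOX4 by 1.2 (SE 0.145, limma adjusted p = 0.00192), AOS by 0.74 (SE 0.094, limma adjusted p = 0.00228) and LOX6 by 0.36 (SE 0.073, limma adjusted p = 0.0147). LOX2 (0.58, 95% interval -0.04 to 1.2), AOC1 (-0.20, -0.58 to 0.19) and TAT3 (0.04, -0.72 to 0.81) did not pass, with limma adjusted p of 0.171, 0.453 and 0.948. The OPR3 call was lost without line 5 replicate 1 (limma adjusted p = 0.0652), line 5 replicate 2 (0.124) or line 12 replicate 3 (0.0505) and with no filter on low values (0.0824), and the LOX6 call without line 5 replicate 1 (0.0775) or replicate 2 (0.0761). Without the 3 libraries above 2% ribosomal RNA, 1 library of each line remained and only the LOX3 difference passed, at a smaller value (-1.03, limma adjusted p = 0.0341). The other 5 kept their direction there, at -1.81 for OPR3, -1.22 for VSP2, -1.10 for LOX4, -0.59 for AOS and -0.30 for LOX6, with limma adjusted p from 0.0599 to 0.296.

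Other genes of the pathway were taken from lists written from knowledge of the pathway, and 66 of 74 passed the filter on low values. Line 5 had 29 that rose and 14 that fell, and line 12 had 32 and 16. The median change was 0.22 and 0.32, beside medians of all tested genes of -0.0086 and -0.0024. For the mean of both lines 32 rose and 17 fell, beside 28.1% in each direction among all tested genes, and values below are for that mean.

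Of 6 tested genes on the precursor list, which holds lipases, desaturases and transport genes, 0 rose and 5 fell. Not all of them act upstream of the lipoxygenases. DALL2, a DAD1-like lipase, fell by 1.86, and the plastid omega-3 desaturases FAD8 and FAD7, which make linolenic acid, fell by 1.26 and 0.56. FAD3, the desaturase of the endoplasmic reticulum, fell by 0.44. DAD1, the lipase of stamens, was listed at 0 in all 8 libraries.

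Among 12 other synthesis genes, 7 rose and 2 fell. OPCL1, which activates the reduced OPDA for beta-oxidation, rose by 1.67, the thiolase KAT2 by 1.29 and the cyclase AOC3, 1088 bases beyond AOC2, by 1.18, of which the line 12 change of 0.63 did not pass alone (limma adjusted p = 0.158). LOX1, a lipoxygenase outside the plastid pathway, fell by 1.17. HPL1, placed in the lists as a competing branch, stood at 1.06 to 1.15 FPKM in WT. It was at 0.732 and 1.28 in line 5 and at 0.0862 to 0.27 in line 12. HPL1 fell in line 12 (-0.82, limma adjusted p = 0.00149), while its line 5 change was -0.09 (limma adjusted p = 0.668). Whether the gene makes a working enzyme in Col-0 was not tested. Of 11 tested genes of conjugation and turnover, 4 rose and 1 fell. CYP94B3, which oxidises the active isoleucine conjugate, stood at 0.224, 0.637 and 0.837 FPKM in WT and at 4.47 to 10.9 in the RNAi libraries (2.69, limma adjusted p = 6.5e-05). ILL6 and ST2A, a conjugate hydrolase and a sulfotransferase, rose by 1 and 0.93, and CYP94C1 by 0.60.

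Of 9 signalling genes, 3 rose and 2 fell. MYC2, the leading transcription factor of the pathway, stood at 8.56, 9.80 and 8.09 FPKM in WT, at 42.6 and 52.8 in line 5 and at 26.6, 15.9 and 21.6 in line 12 (1.73, limma adjusted p = 6.85e-05). As for LOX3, LOX4 and AOS, its 3 groups did not overlap and line 12 lay between the others. Its relative MYC4 fell by 1.37, and the repressors JAM1 and JAM2 rose by 1.01 and 0.34; the line 12 change of JAM2 was 0.11 and did not pass alone (limma adjusted p = 0.383). Of 12 JAZ genes 10 rose and 1 fell; JAZ1 rose by 1.91, JAZ7 by 1.66, JAZ5 by 1.40 and JAZ10 by 1.17. The 4 early regulators all rose: ZAT10 by 3.89, WRKY40 by 3.62, ERF109 by 3.33 and ORA47, an activator of synthesis genes, by 2.95. ZAT10 and WRKY40 are counted again among the rapid touch genes below.

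The other output genes, like TAT3 and VSP2, went both ways. Of 11 tested, 4 rose and 5 fell. NAC055, a transcription factor downstream of MYC2, rose by 1.79 and CORI3, an aminotransferase relative of TAT3, by 1.14. VSP1 fell by 1.88 and the chlorophyllase gene CLH1 by 1.68. THI2.1, PDF1.2A, PDF1.2B, TPS04 and MBP1 were below the filter and were not tested.

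**Figure D4:**
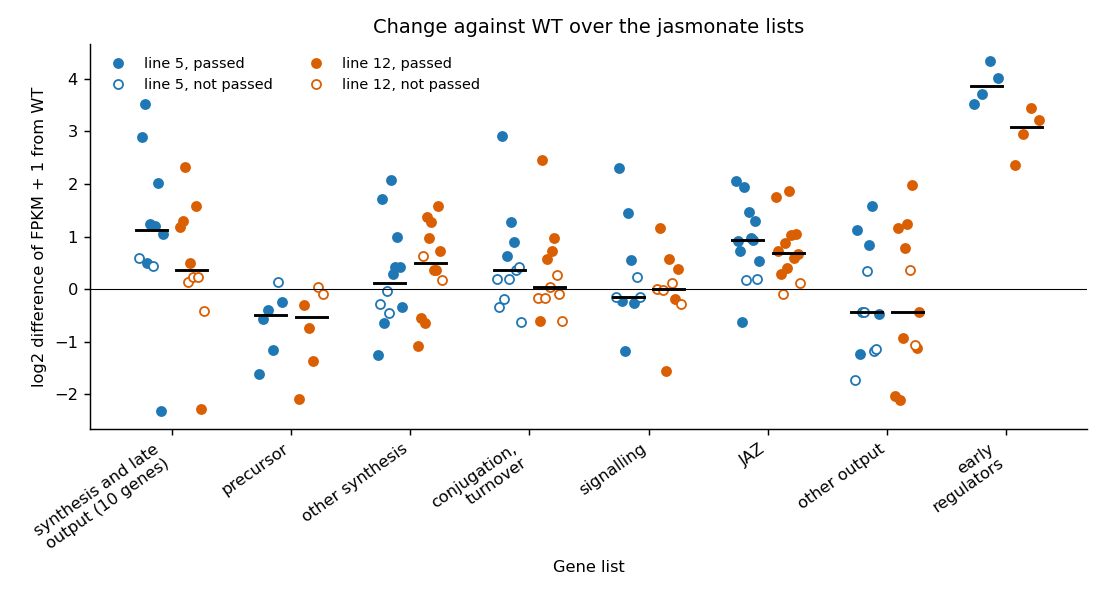
Log2 difference of FPKM + 1 from WT for every tested gene of each jasmonate list, line 5 left and line 12 right within a list, with a bar at the median; filled points passed the adjusted threshold of 0.05, and the list of 1 competing gene is left out. All 4 early regulators and most JAZ genes lay above 0 in both lines, 5 of 6 precursor genes passed below 0 in line 5, and the other output genes lay on both sides.

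Lists of tissue and state genes also differed between WT and the RNAi lines, not all in the same direction, and are given beside the 10 genes. The summed level of 15 rapid touch genes was 80.7 to 114.9 FPKM in WT, 1100.7 to 1228.4 in line 5 and 722.6 to 802.7 in line 12. All 15 rose in both lines, beside 17.6% of all tested genes. Of them 11 were lower in line 12 than in line 5, beside 9.93% of all tested genes. That is the order of the lines seen for LOX3, LOX4 and AOS. TCH4, chosen after its values were seen, went the other way by ranges, at 135.0 to 161.8 FPKM in line 12 and 100.3 and 110.7 in line 5. For the mean of both lines, used for the next lists, 28.1% of all tested genes rose and 28.1% fell. Of 13 tested root genes 1 rose and 7 fell for the mean of both lines. The sum of the root list, mostly PYK10, was 1460.9 to 1857.3 in WT, 675.9 to 1022.3 in line 5 and 567.2 to 1051.7 in line 12. Without PYK10 it was 60.2 to 89.3 in WT, 32.1 and 56.0 in line 5 and 28.8 to 64.2 in line 12, which overlapped WT. None of 9 tested leaf genes rose and 7 fell, with sums of 25948.7 to 26896.6, 24354.3 to 25438.3 and 19113.6 to 20198.6. Of 7 clock genes 3 rose and 2 fell, among them PRR5, which rose by 2.05, TOC1, which rose by 1.5, and LHY and CCA1, which fell by 1.98 and 1.2. No defining marker of root or leaf was listed at 0 throughout. The part of these differences in the levels of the 10 genes was not tested, nor was that of the hour of harvest.

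Closeness in profile was the Euclidean distance over 8 libraries of the log2 level less its WT mean. For each of the 10, the closest gene outside the 10 was not in the jasmonate lists. Few of the tested genes are in those lists, so this was likely beforehand and cannot tell whether regulation is shared. LOX4 lay nearest to PUMP5, listed as an uncoupling protein, at a distance of 0.33. LOX3 was nearest to the calmodulin-like gene CML37 (0.57), AOC2 to YLS3 (0.325), a lipid transfer protein relative, AOC1 to GAD4 (0.25), a glutamate decarboxylase, and OPR3 to the homeobox gene ATHB-4 (0.936). LOX2, LOX6, AOS, TAT3 and VSP2 were nearest to AT5G45095 (0.443), AT5G46840 (0.103), AT3G47080 (0.247), AT2G30766 (0.626) and AT1G67920 (0.332). Within the 10, LOX3 and LOX4 were each other's nearest, at 2.14, yet 1.79% of tested genes lay closer to LOX3 than LOX4 did, and 0.903% lay closer to LOX4 than LOX3 did.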

How the data were processed

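RNA from whole seedlings (1.5 µg total RNA per TruSeq library, per the labels) was sequenced in 8 libraries. The authors deposited 1 table of values scaled to FPKM, with 1 column per library. That unit was inferred from the values, as no header states it. The submitters' processing notes name HISAT2, StringTie (no versions) and TAIR10; not given in the sources used here are the counting step, the annotation version and strand use. None of the 10 genes overlapped another annotated gene. Low values were whole fragments for 88.35% to 89.51% (tolerance 0.01 fragments), which gave the implied depth; counts were not recovered.

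Genes were tested (19395) if 2 or more libraries reached 1 FPKM, on log2(FPKM + 1), with limma 3.58.1 in R 4.3.3 (intensity trend, all 3 groups in 1 fit, Benjamini-Hochberg adjustment over all tested genes). The fit was tested on simulated data. Alternatives were other scalings and filters, a pseudocount of 0.1, a replicate block, only the groups compared, and leaving out libraries. Promoters and coding sequences came from RefSeq TAIR10.1, in which 32532 of 32548 nuclear genes had the table's start and end; coding sequences, aligned with Biopython 1.88, stood in for proteins. Outside the 10 genes, the text names from each list up to 4 called genes, those that changed most in the mean of both lines, and the gene closest in profile to each of the 10. Other genes are named as below the filter, or where said to be chosen after their values were seen. AOS is listed as CYP74A. The 10 genes and the lists were chosen with earlier results of these data known.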

Additional observations from a re-analysis of the deposited data

Results flagged for a closer look

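For 6 of the 10 genes the change against WT differed between the lines by the test of the difference itself (line 12 less line 5, limma, adjusted over 19395 genes), and all 6 were lower in line 12, where 9.93% of all tested genes were lower by the same test. The differences were -1.60 for LOX3, -1.20 for LOX4, -0.36 for LOX6, -0.74 for AOS, -1.78 for OPR3 and -1.46 for VSP2. The OPR3 difference passed in 10 of 16 alternatives and that of LOX6 in 12 of 16. OPR3 and VSP2 were the genes called against WT in line 5 whose line 12 libraries overlapped WT. Beside these differences, the touch genes also summed lower in line 12 than in line 5, at 722.6 to 802.7 against 1100.7 to 1228.4 FPKM. Ribosomal RNA reached 7.60% in line 12 against 2.18% in line 5. The part of the touch genes and of ribosomal RNA in these differences was not tested. ABCE2 did not pass in the same comparison (-0.01, limma adjusted p = 0.919).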

How the results depend on the processing

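Of 626 recomputed changes of the 10 genes, 586 kept their direction and side of the threshold, 19 lost a call, 14 gained one and 7 turned direction. None of the 7 had passed: line 12 less WT for OPR3 (-0.04 without WT replicate 2, -0.13 without line 12 replicate 2, up to 0.52 over all libraries left out), and line 12 less line 5 for LOX2 (-0.03 without libraries above 2% ribosomal RNA) and TAT3 (-0.10 with the replicate block, -0.17 without line 5 replicate 1, -0.06 without line 12 replicate 3, up to 0.25 without another, -0.02 without libraries above 2% ribosomal RNA). The cause was not tested. The OPR3 call for the mean of both lines was lost with no filter (adjusted p = 0.069), with the block (0.0538), without WT replicate 2 (0.0654) and without line 5 replicate 2 (0.0505).

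Leaving out each library gave 2773 to 4286 genes higher and 2682 to 4514 lower in line 5 (lowest without line 5 replicate 1), 673 to 1789 higher and 730 to 1828 lower between the lines, 0 to 1 of the 10 genes higher and 6 to 24 other jasmonate genes called between the lines, 1 to 2 of the 10 lower in line 12, and 3 to 10 root genes called. A line left with 1 library was taken to vary as the other groups do. Without libraries above 2% ribosomal RNA, line 12 had 3485 higher and 3527 lower genes, and the lines differed in 205 higher and 226 lower genes, 1 of the 10 lower and 3 other jasmonate genes. With no filter, 1114 genes were higher between the lines, 12 other jasmonate genes were called there, and 4 root and 3 leaf genes were called. The 5 FPKM filter gave 3 root genes and, as did rescaling without ribosomal RNA, 1 of the 10 higher between the lines.

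Deviations from the group mean, over genes, correlated at -0.298 to 0.163 between same-numbered libraries of different groups. Between libraries of other numbers they correlated at -0.288 to 0.288. Deviations cancel out within such small groups, so they cannot decide whether the libraries were paired. With the replicate block 714 genes were higher and 825 lower between the lines, and 10 other jasmonate genes were called; of the 6 differences between the lines, OPR3 (-1.72, adjusted p = 0.0883) and LOX6 (-0.37, adjusted p = 0.0654) did not pass with it. AACGTG was in 2 of the 10 promoters when only bases before the start were searched. The mean of both lines has no value in fits of only the groups compared, nor VSP2 at the 5 FPKM filter. Depth limits TAT3 and VSP2 most.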

Other observations

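The relatives of OPR3 in the cytosol went the other way between the lines; these genes were chosen after their values were seen. OPR1 stood at 38.2, 33.6 and 29.2 FPKM in WT, at 29.4 and 36.0 in line 5 and at 67.3, 92.8 and 111.5 in line 12. OPR1 rose in line 12 by 1.38 (limma adjusted p = 0.000497) and its line 5 change was -0.04 (limma adjusted p = 0.896); between the lines it rose by 1.42 (limma adjusted p = 0.00386). OPR2 rose by 0.98 in line 12 (limma adjusted p = 0.00321) and by 1.44 between the lines (limma adjusted p = 0.00406). Their coding sequences were 91.7% identical and 2.78% of the 75-base stretches of OPR1 were shared, so a small part of their fragments could be exchanged. Neither gene shared a 50-base stretch with OPR3.

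TAT3 was lower in WT replicate 1 than in the other WT libraries, and 2 output or turnover genes showed the same library low, again chosen after their values were seen. NATA1, an acetyltransferase gene, stood at 0.196, 2.90 and 3.78 FPKM in WT and at 0.164 to 0.608 in the RNAi libraries. JOX4, a jasmonate oxidase listed under the name ANS, stood at 0.109, 1.36 and 1.13 in WT and at 0.0855 to 0.292 in the RNAi libraries. Neither passed for the mean of both lines (limma adjusted p = 0.0536 and 0.0664), and in both WT replicate 1 overlapped the RNAi range, which TAT3 did not.

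In the table's own annotation, 30 tested genes belonged to alpha-linolenic acid metabolism, 8 of them among the 10 described here. For the mean of both lines 19 rose and 5 fell, with a median change of 0.41, beside 28.1% of all tested genes in each direction; the 8 were counted above as well. This annotation was chosen after the data were seen.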
